A study of Mus musculus with 8 samples.

Results

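Transcripts of 33 genes of resident macrophages and other immune cells were followed in bulk RNA-seq of dorsal root ganglia (DRG) from mouse embryos at E18.5. The genes were chosen by name, as known macrophage and myeloid genes together with the ligand gene Il34, and all 33 were found among the 55414 genes listed in each library. The first genotype, AdvillinCre/+;Rosa26Dach1/+ (AD1 OE), combined a Cre recombinase driven from the Advillin locus of sensory neurons with a Dach1-IRES-EGFP cassette at Rosa26 whose stop sequence is flanked by lox sites. Control embryos, Advillin+/+;Rosa26Dach1/+, carried the same Rosa26 allele without Cre. The Rosa26 line was kept on a mixed C57Bl/6J and CD1 background, and Advillin is not a macrophage gene. Each genotype had 4 libraries, numbered 1 to 4, and the labels do not say whether a library is 1 embryo or a pool, nor whether the 4 come from separate embryos, so that the p-values measure the spread between these libraries.

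Macrophages settle in the peripheral ganglia during embryonic life, next to neurons, satellite glia and vessels. Their survival depends on the receptor encoded by Csf1r, which is activated by the products of Csf1 and Il34, and their identity on the transcription factor PU.1, encoded by Spi1. They take up debris and dying cells, produce the C1q chains that start the classical complement pathway, and carry receptors such as Trem2 and the Fc receptors, which signal through the adaptors Tyrobp and Fcer1g. The labels name the cell content of the ganglia as neurons and glia only. The comparison asked whether transcripts of the macrophages and immune cells within the ganglia differed when the sensory neurons expressed Dach1 broadly at a late stage. In the paper's account, Dach1 in AD1 OE is restricted normally at first and broadly expressed again only later. AD1 OE also differed from Control by Cre, by EGFP and by the altered Advillin locus. Their effects cannot be told apart from that of Dach1 in this design. In bulk tissue, fewer cells of a type and less RNA per cell cannot be told apart.

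The libraries held 22339059 to 44025625 counts. Dach1 was at 95.9 ± 5.28 CPM in AD1 OE against 32.6 ± 1.64 CPM in Control, and Avil, the locus of Cre, was at 464 ± 12 against 892 ± 35.1 CPM, each without overlap. CPM are counts scaled to a common library size, given as mean ± SD (n = 4) or for each library. AD1 OE replicates 1, 2 and 4 and Control replicate 4 carried transcripts of Y-linked genes, and the other 4 libraries carried Xist. Some libraries stood apart in other cell types. The 13 lymphocyte markers summed to 22 and 13.3 CPM in AD1 OE replicates 1 and 2 and to 6.01 to 8.05 CPM in the other 6 libraries, with 5 of them at 0 in some library. The 5 spinal cord markers summed to 15.8, 3.99, 8.92 and 11.5 CPM in Control replicates 1 to 4 and to 4.45 to 6.48 CPM in AD1 OE. Leaving out AD1 OE replicates 1 and 2 turned the sign of 8 genes of the list, and their values are given further on.

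Promoter sequences, which the choice of the genes did not use, were searched for a motif. The letters GAGGAAGT, a form of the motif that PU.1 binds, were searched on both strands from 250 bases before to 50 bases after each gene's start (RefSeq, GRCm38.p6). Of the 33 genes, 23 had an entry, with 28 promoters in all, and 5 of these promoters (17.9%) held the motif, those of C1qc, Cd53, Ctss, F13a1 and Pf4, against 3.20% of the 32851 promoters listed. The shorter core GAGGAA, which lies within the longer motif, was found in 18 of the 28 (64.3%), belonging to 16 genes, against 28.3% of all promoters. A match is a description of letters and not a binding site. The windows of C1qc and Pf4 are shown because these genes hold the longer motif before their start, that of C1qb because it lies next to C1qc and holds the core, and that of Ptprc because its values set it apart from the other genes below. Capitals mark the motif or the core, or its reverse complement, and each line is written 5′ to 3′ on the strand of the gene.
C1qc (chr4:136893091-136893120, minus strand): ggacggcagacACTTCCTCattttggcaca
C1qb (chr4:136886212-136886241, minus strand): cagcaggatggGAGGAAcagaggggtgata
Pf4 (chr5:90772405-90772434, plus strand): tgtcattgcttctgcagagcACTTCCTCat
Ptprc (chr1:138175445-138175474, minus strand): gttttcctttaGAGGAAaattgagacgaac
The motif began 195 bases before the start in C1qc and 10 bases before it in Pf4, and the core 30 bases before it in C1qb and 158 bases before it in Ptprc.

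Every one of the 33 genes was detected. The lowest count of any of them in any library was 4, above the floor of 3 counts, and together they took 0.0491 to 0.0571% of the counts of a library. By mean CPM over the 8 libraries, 14 genes were above 10 CPM, 17 were between 1 and 10 CPM, and Cd14 and Ccl3 were under 1 CPM. Levels can be compared between genes only per length, and CPM per kilobase of exon is used for that. Coro1a, which encodes an actin-binding coronin of leukocytes that neurons also express, led with 57.4 CPM per kilobase, and its lowest library was above the highest library of any other of these genes. C1qb followed with 18.3, Pf4 with 16.3, C1qa with 15.7, Lyz2 with 13.1 and, after Tyrobp, C1qc with 10.1 CPM per kilobase. Neighbours in this order overlapped between libraries all the way down to Fcgr3, the 17th gene at 5.02 CPM per kilobase, below which a clear step led to Laptm5 at 2.92 CPM per kilobase. At the low end stood Irf8 at 0.307, Ptprc at 0.288, Ccl3 at 0.272 and Itgam at 0.222 CPM per kilobase, with libraries that overlapped. Ptprc was low on this scale in part by its long exon model of 18313 bases, since its mean CPM was above that of Cd53.

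**Figure D1:**
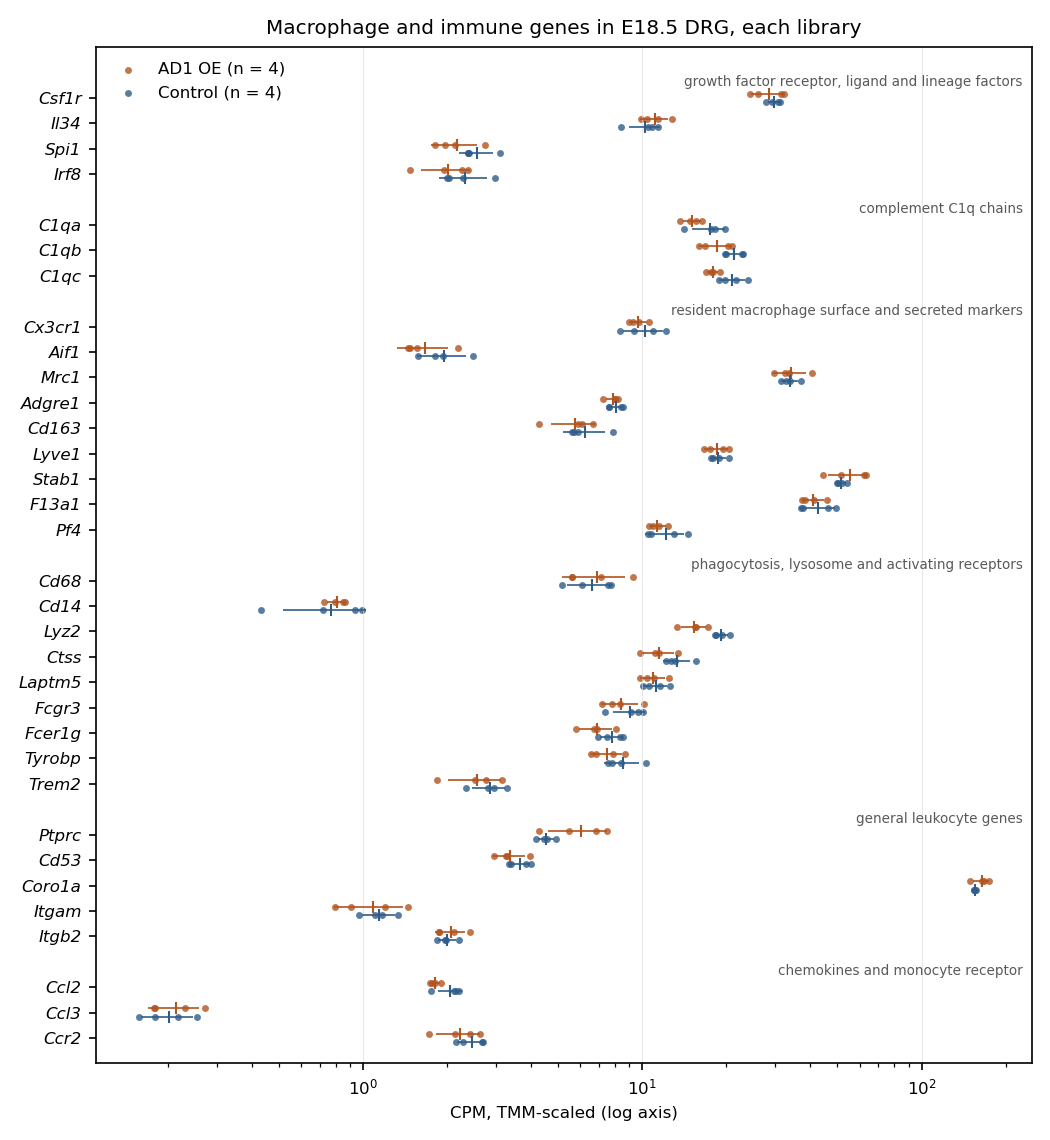
Level of each of the 33 genes in CPM, scaled by TMM, on a log axis, with 1 point per library (AD1 OE orange, Control blue, n = 4 each) and the mean ± SD as a vertical tick and a line. The genes are grouped by role, Coro1a lies far to the right of the others, and the orange and blue points overlap for every gene except Lyz2.

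At the median, spread between libraries was wider for these genes than over all genes. Over the 8 libraries, the coefficient of variation of CPM had a median of 12.6% among the 33 genes, with a range from 5.44% for Coro1a to 23.7% for Ptprc. The median was 8.24% over all tested genes and 10.3% over the 4345 tested genes with a mean CPM between 2.62 and 17.6, the range that holds the middle of these genes. Counting error is part of this spread. For Adgre1 (5.47% against 6.67%) and Itgb2 (9.72% against 13.3%) the spread was no wider than counting alone gives, while for Ptprc it was wider (23.7% against 8.42%).

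Across the list, no gene passed the threshold of the study, an adjusted p under 0.005 with an absolute log2 fold change over 0.25. In the edgeR quasi-likelihood test with Benjamini-Hochberg adjustment over all genes, 0 of the 32 genes that could be tested were called, against 2.57% of the 17721 genes tested, 1.78% on the lower and 0.784% on the higher side. DESeq2 called 0 as well. At an adjusted p under 0.05, 1 gene was left, Lyz2, against 6.55% of all tested genes. At an unadjusted p under 0.05 there were 4, C1qb, C1qc and Lyz2 on the lower side and Ptprc on the higher side, against 18.6% of all tested genes, 10.3% lower and 8.28% higher. The fitted value was below 0 for 24 of the 32 genes, where 49.5% of all tested genes were below 0, and the median log2 fold change was -0.11 against 0.00 over all tested genes. The genes are not independent of each other, since the same cells carry most of them. AD1 OE replicates 1 and 2 had the lowest median deviations over the list (-0.12 each), so leaving them out moves its median up by itself. In a fit without them, added after the data had been seen, the median was -0.020, with 18 of 32 values below 0. In that fit the sign turned for Csf1r (to 0.10), Il34 (to -0.02), Adgre1 (to 0.02), Cd163 (to 0.02), Lyve1 (to 0.10), F13a1 (to 0.04), Laptm5 (to 0.07) and Ccr2 (to 0.04), none of them called in either fit.

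The intervals bound what these data could have missed. The 95% interval of the log2 fold change lay within 0.5 of 0 for 24 of the 32 genes and within 1 of 0 for all 32, and the median standard error was 0.11. Ccl3, at 4 to 12 counts per library, was not tested.

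**Figure D2:**
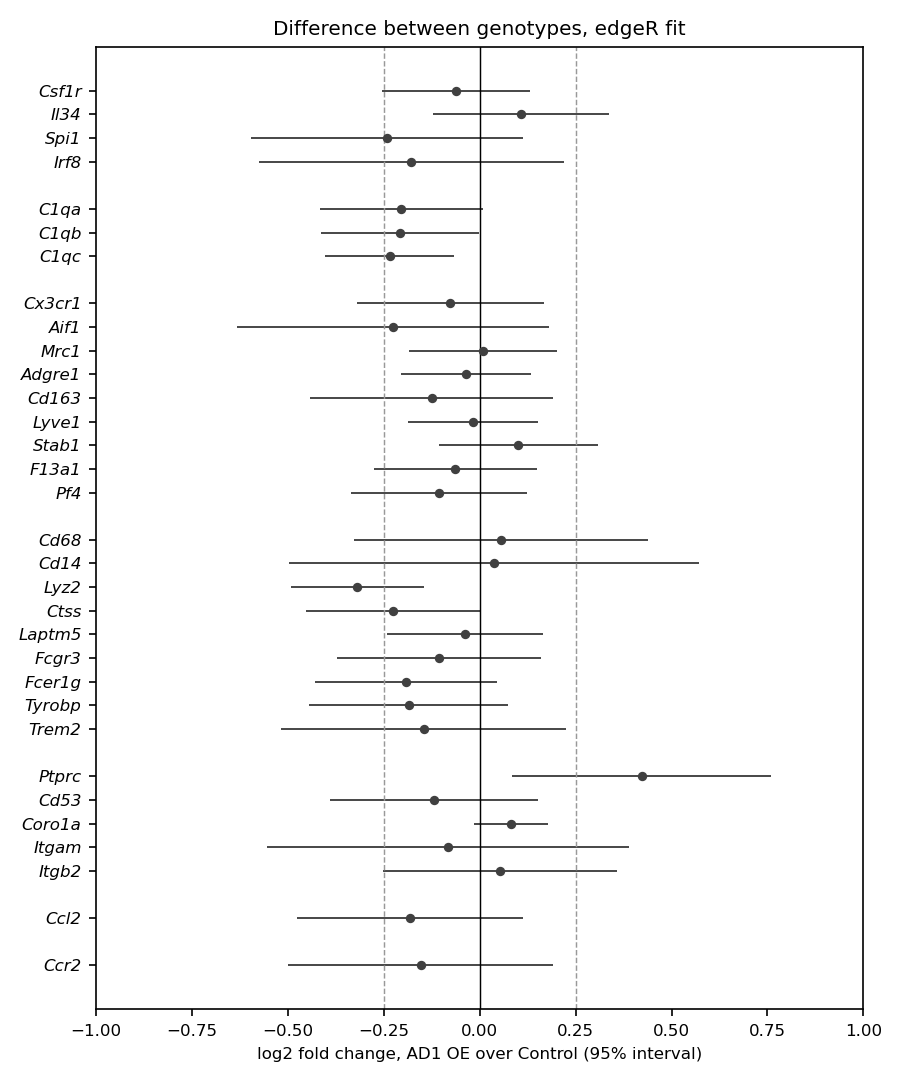
Log2 fold change of AD1 OE over Control for the 32 tested genes, as points with 95% intervals from the edgeR fit, with dashed lines at 0.25 to either side of 0. Most points lie left of 0 with intervals that cover it, the intervals of Lyz2, C1qc and C1qb end left of 0 and that of Ptprc lies right of it.

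Among the genes that set up and maintain the lineage, the levels of the 2 genotypes overlapped. Csf1r, the growth factor receptor of macrophages, was at 26.0, 24.3, 31.4 and 32.3 CPM in AD1 OE replicates 1 to 4 and at 27.6, 29.2, 30.7 and 31.2 CPM in Control. The AD1 OE libraries lay on both sides of the Control libraries, and the log2 fold change was -0.06 with an interval from -0.25 to 0.13 (adjusted p = 0.775, edgeR quasi-likelihood test). Some 15.1% of the exon bases of Csf1r are shared with Hmgxb3 on the other strand, and no source used here says whether reads were counted by strand. Il34, which encodes a ligand of Csf1r made by neurons and epithelia rather than by macrophages, was at 11.1 ± 1.28 CPM in AD1 OE against 10.3 ± 1.29 CPM in Control (log2 fold change 0.11, edgeR adjusted p = 0.647). Csf1, the other ligand gene, was at 35.8 ± 3.28 and 33.1 ± 1.4 CPM (log2 fold change 0.11, edgeR adjusted p = 0.408). Spi1 and Irf8 encode transcription factors of the myeloid lineage and were at about 2 CPM. Spi1 was at 1.81, 1.96, 2.14 and 2.73 CPM in AD1 OE and at 3.10, 2.37, 2.40 and 2.37 CPM in Control. In AD1 OE, 3 libraries were below all Control libraries and the fourth was inside their range. Its log2 fold change was -0.24 with an interval from -0.60 to 0.11 (edgeR adjusted p = 0.477), and Irf8 had -0.18 with an interval from -0.58 to 0.22 (edgeR adjusted p = 0.664).

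The C1q chains form 1 protein, the recognition part of the classical complement pathway, and their genes C1qb, C1qc and C1qa are neighbours on chromosome 4. C1qa was at 16.3, 14.9, 15.6 and 13.6 CPM in AD1 OE and at 19.8, 18.2, 14.1 and 17.7 CPM in Control. C1qb was at 15.9, 16.8, 20.9 and 20.3 CPM in AD1 OE and at 22.8, 22.9, 19.9 and 19.7 CPM in Control. C1qc was at 17.6, 16.9, 17.9 and 18.9 CPM in AD1 OE and at 23.9, 21.7, 18.8 and 19.7 CPM in Control. Control replicates 1 and 2 were the highest libraries for all 3 chains, while Control replicate 3 fell within the AD1 OE range for each of them, so that the genotypes overlapped. The log2 fold changes were -0.20 for C1qa, -0.21 for C1qb and -0.23 for C1qc, with edgeR adjusted p-values of 0.287, 0.261 and 0.109, and none was called. Leaving out Control replicate 3 brought the lowest edgeR adjusted p-values, 0.0634 for C1qa and 0.0671 for C1qc, and without AD1 OE replicates 1 and 2 the log2 fold change of C1qb was -0.05.

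Of the 9 surface and secreted markers of resident macrophages, 0 had an unadjusted p under 0.05, with log2 fold changes from -0.23 for Aif1 to 0.10 for Stab1. Mrc1, the mannose receptor, was at 34.0 ± 4.68 CPM in AD1 OE against 33.8 ± 2.42 CPM in Control. Lyve1, a hyaluronan receptor of perivascular macrophages and lymphatic endothelium, was at 16.6 to 20.4 CPM in AD1 OE against 17.6 to 20.5 CPM in Control, and Adgre1, which encodes F4/80, at 7.85 ± 0.424 and 8.04 ± 0.486 CPM. These 3 genes had the values nearest to 0 of the 9, and their intervals all stayed within 0.25 of 0. F13a1, which encodes a subunit of coagulation factor XIII, was at 40.8 ± 3.84 and 42.6 ± 6.23 CPM, and Pf4, a chemokine of platelets and resident macrophages, was at 11.3 ± 0.779 and 12.2 ± 1.93 CPM. Both were highest in Control replicate 2. Cx3cr1, the fractalkine receptor, was at 9.66 ± 0.699 and 10.2 ± 1.71 CPM, and its ligand gene Cx3cl1 was at 15.8 ± 2.05 and 15.1 ± 2.64 CPM. Aif1, which encodes the macrophage protein Iba1, was at 1.56, 2.18, 1.45 and 1.48 CPM in AD1 OE and at 2.47, 1.93, 1.57 and 1.81 CPM in Control. Cd163, a haemoglobin scavenger receptor, was at 5.90, 4.28, 6.66 and 6.08 CPM in AD1 OE and at 5.58, 7.85, 5.90 and 5.70 CPM in Control. Each of the last pair had 1 library well away from the other 3 of its genotype, AD1 OE replicate 2 for Aif1 and Control replicate 2 for Cd163.

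Stab1, a scavenger receptor of macrophages and sinusoidal endothelium, depended on which AD1 OE libraries were read. It was at 51.5, 44.2, 62.2 and 63.3 CPM in AD1 OE and at 49.7, 54.2, 50.4 and 51.9 CPM in Control. AD1 OE replicates 3 and 4 were above every Control library, replicate 2 was below them all, and replicate 1 was among them. Over all libraries the log2 fold change was 0.10 (edgeR adjusted p = 0.634). Without AD1 OE replicates 1 and 2, the lowest of their genotype for Stab1, it was 0.28 (edgeR adjusted p = 0.0182). That fit was added after the data had been seen and drops the low libraries, so this p-value is not a test of Stab1.

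Lyz2, which encodes the lysozyme of macrophages and neutrophils, was the gene of the list that differed most clearly. It was at 13.3, 15.6, 15.4 and 17.2 CPM in AD1 OE replicates 1 to 4 and at 20.7, 18.3, 18.3 and 19.3 CPM in Control. All 4 AD1 OE libraries were below all 4 Control libraries, which held for no other of the 32 genes tested, against 7.26% of all tested genes with such a separation on the lower side and 5.69% with the opposite one. AD1 OE stood at 80.1% of Control, a log2 fold change of -0.32 with an interval from -0.49 to -0.15 (adjusted p = 0.0335, edgeR quasi-likelihood test), which did not reach the 0.005 of the study. It was under 0.05 in 6 of the 16 alternative fits and above it when any library other than AD1 OE replicate 4 was left out. The value was -0.31 within the libraries that carried Xist (1 AD1 OE against 3 Control) and -0.33 within those that carried Y-linked genes (3 against 1), neither with a test. Over the alternative fits, the log2 fold change ranged from -0.37 to -0.23 and the edgeR or DESeq2 adjusted p from 0.00653, without an expression filter, to 0.263, without AD1 OE replicates 1 and 2. Lyz1, a close copy of Lyz2 looked up after the values had been seen, was at 0 to 6 counts per library.

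The other genes of phagocytosis, lysosome and activating receptors overlapped between the genotypes. Ctss, a lysosomal cysteine protease, was at 9.79, 13.5, 11.5 and 11.1 CPM in AD1 OE and at 15.5, 13.1, 12.2 and 12.6 CPM in Control. Only AD1 OE replicate 2 reached into the Control range, and the log2 fold change was -0.23 (edgeR adjusted p = 0.269). Fcer1g and Tyrobp, the signalling adaptors, had log2 fold changes of -0.19 and -0.19, with 6.86 ± 0.910 against 7.81 ± 0.751 CPM and 7.48 ± 0.967 against 8.52 ± 1.24 CPM (edgeR adjusted p = 0.386 and 0.449). The receptor genes that use them had smaller values, -0.11 for the Fc receptor gene Fcgr3 and -0.15 for Trem2, a lipid receptor at 2.56 ± 0.548 against 2.84 ± 0.394 CPM. Laptm5, a lysosomal membrane protein of haematopoietic cells, was at 10.9 ± 1.14 and 11.2 ± 1.12 CPM. Cd68, a lysosomal glycoprotein, was at 5.58, 5.61, 7.11 and 9.28 CPM in AD1 OE and at 6.07, 5.14, 7.55 and 7.71 CPM in Control. The genotypes overlapped, with AD1 OE replicate 4 above and Control replicate 2 below all libraries of the other genotype. Cd14, the lipopolysaccharide co-receptor, was at 0.807 ± 0.0617 and 0.769 ± 0.253 CPM with an interval from -0.50 to 0.57 on the log2 scale.

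Ptprc, which encodes CD45, a surface phosphatase of leukocytes, was the gene with the highest log2 fold change of the list, and its values followed 2 libraries. It was at 7.51, 6.82, 4.28 and 5.47 CPM in AD1 OE replicates 1 to 4 and at 4.45, 4.55, 4.91 and 4.18 CPM in Control. AD1 OE replicates 1, 2 and 4 were above every Control library and replicate 3 was within the Control range. The log2 fold change was 0.42 with an interval from 0.09 to 0.76 (edgeR adjusted p = 0.155), and Ptprc was not called. It was -0.11 within the libraries that carried Xist and 0.66 within those that carried Y-linked genes, neither with a test.

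The 2 libraries with the most Ptprc also held transcripts of T cells. Cd8a, the T cell co-receptor, had 185 and 45 counts in AD1 OE replicates 1 and 2 and at most 1 count in each of the other 6 libraries. Cd3d had 34 and 14 counts against at most 1, and Cd3g had 54 and 7 counts against at most 2. Cd4 was at 4.23 and 1.78 CPM in these 2 libraries and at 0.383 to 0.943 CPM in the others, and Lck, a kinase of T cells, at 7.39 and 5.21 CPM against 3.35 to 4.59 CPM. Rag1, the recombinase of developing lymphocytes, was at 14.1 and 6.73 CPM against 0.612 to 1.85 CPM. The B cell genes Cd79a and Cd79b were at 0.574 to 1.09 CPM in all 8 libraries. Of these genes, all but Cd4 and Lck were picked after their values had been seen. Without AD1 OE replicates 1 and 2, the log2 fold change of Ptprc was 0.12 (edgeR adjusted p = 0.797), and without AD1 OE replicate 3, the lowest of its genotype, it was 0.56 (edgeR adjusted p = 0.0182). The part of these T cell transcripts in the value of Ptprc was not tested.

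**Figure D3:**
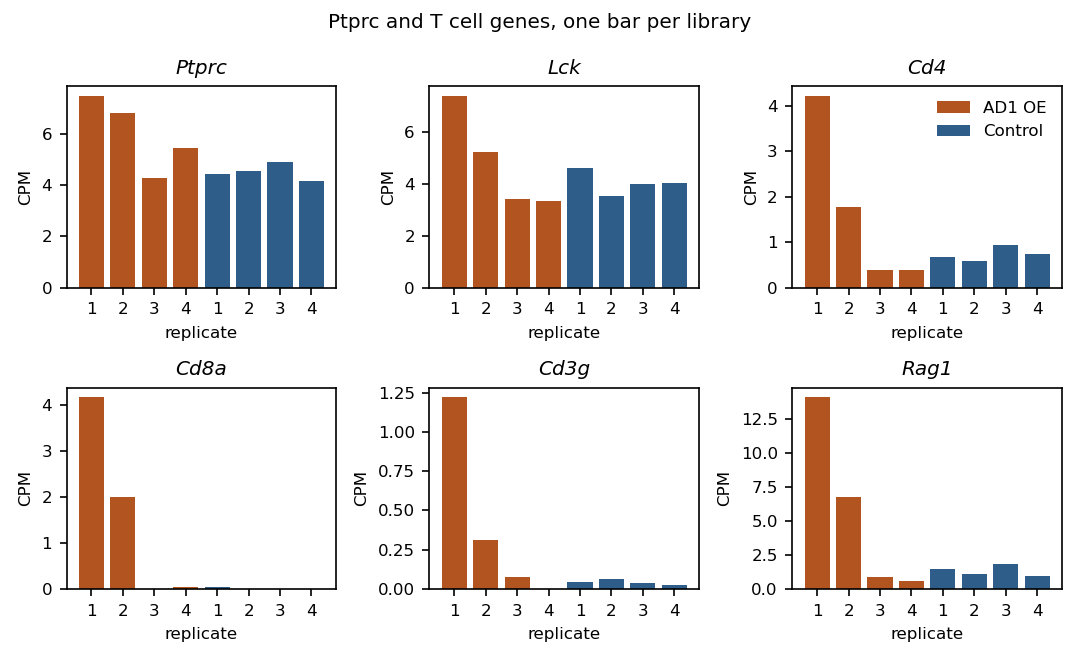
CPM of Ptprc and of the T cell and thymocyte genes Lck, Cd4, Cd8a, Cd3g and Rag1, with 1 bar per library, AD1 OE replicates 1 to 4 in orange and Control replicates 1 to 4 in blue, and axes that start at 0. AD1 OE replicates 1 and 2 have the highest bars in all 6 panels, and Cd8a is near 0 in the other 6 libraries.

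The other general leukocyte genes did not share the values of Ptprc. Cd53, a tetraspanin of leukocytes, was at 2.94, 3.25, 3.29 and 3.96 CPM in AD1 OE and at 3.37, 3.83, 4.01 and 3.33 CPM in Control, lowest in AD1 OE replicate 1, which had the most Ptprc. Itgb2, the integrin chain of leukocytes, was at 2.07 ± 0.256 and 2.00 ± 0.149 CPM, and its partner Itgam, which encodes CD11b, at 1.09 ± 0.299 and 1.14 ± 0.154 CPM. For Itgam 68.7% of the exon bases belong also to Gm49368 on the same strand, so that its counts may be incomplete. Coro1a was at 168, 149, 175 and 165 CPM in AD1 OE and at 155, 154, 155 and 157 CPM in Control. Control libraries were close to each other, and 3 of the AD1 OE libraries were above and 1 was below them, with a log2 fold change of 0.08 (edgeR adjusted p = 0.357). Without AD1 OE replicate 2 it was 0.13 and the edgeR adjusted p was 0.0486.

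The chemokines and the monocyte receptor were low. Ccl2, which attracts monocytes, was at 1.81, 1.74, 1.76 and 1.91 CPM in AD1 OE and at 2.11, 2.15, 2.2 and 1.75 CPM in Control, with 3 Control libraries above all AD1 OE libraries and Control replicate 4 among them. Its log2 fold change was -0.18 (edgeR adjusted p = 0.537). Ccr2, the receptor of Ccl2 on monocytes, was at 2.22 ± 0.391 and 2.45 ± 0.270 CPM (log2 fold change -0.15, edgeR adjusted p = 0.667). Ccl3, a chemokine of activated macrophages, was at 0.157 to 0.271 CPM over all libraries, near the floor of 0.0677 to 0.135 CPM that 3 counts give.

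The libraries differed in how much of the whole list they carried. Control replicate 1 was the highest library for 12 of the 32 tested genes, among them Spi1, Irf8 and Aif1, and AD1 OE replicate 4 and Control replicate 2 were the highest for 6 each. AD1 OE replicates 1 and 2 were the lowest for 9 and 10 genes. The median deviation of the 32 genes from their means, on the log2 scale, was -0.12 in AD1 OE replicate 1, -0.12 in AD1 OE replicate 2, -0.04 in AD1 OE replicate 3 and 0.08 in AD1 OE replicate 4. In Control replicates 1 to 4 it was 0.12, 0.10, -0.03 and 0.00. AD1 OE replicate 4 was thus above AD1 OE replicates 1 to 3 and inside the range of the Control libraries. The summed level of the 28 macrophage markers other than Coro1a was 323 to 389 CPM in AD1 OE against 350 to 390 CPM in Control, and these ranges overlapped for most of their width. Control replicate 1, the library with the most spinal cord transcripts, was thus also the one that led most often, while Control replicate 2, with the next highest median deviation, had the fewest. The 9 microglia markers summed to 123 CPM in Control replicate 1 and to 101 to 112 CPM in the other 7 libraries. Such a sum follows its most abundant genes, here Olfml3 and Tmem119. Which cells of the ganglia express these genes was not measured, so the sum is not a measure of microglia. The part of spinal cord tissue and of its microglia in these values was not tested.

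**Figure D4:**
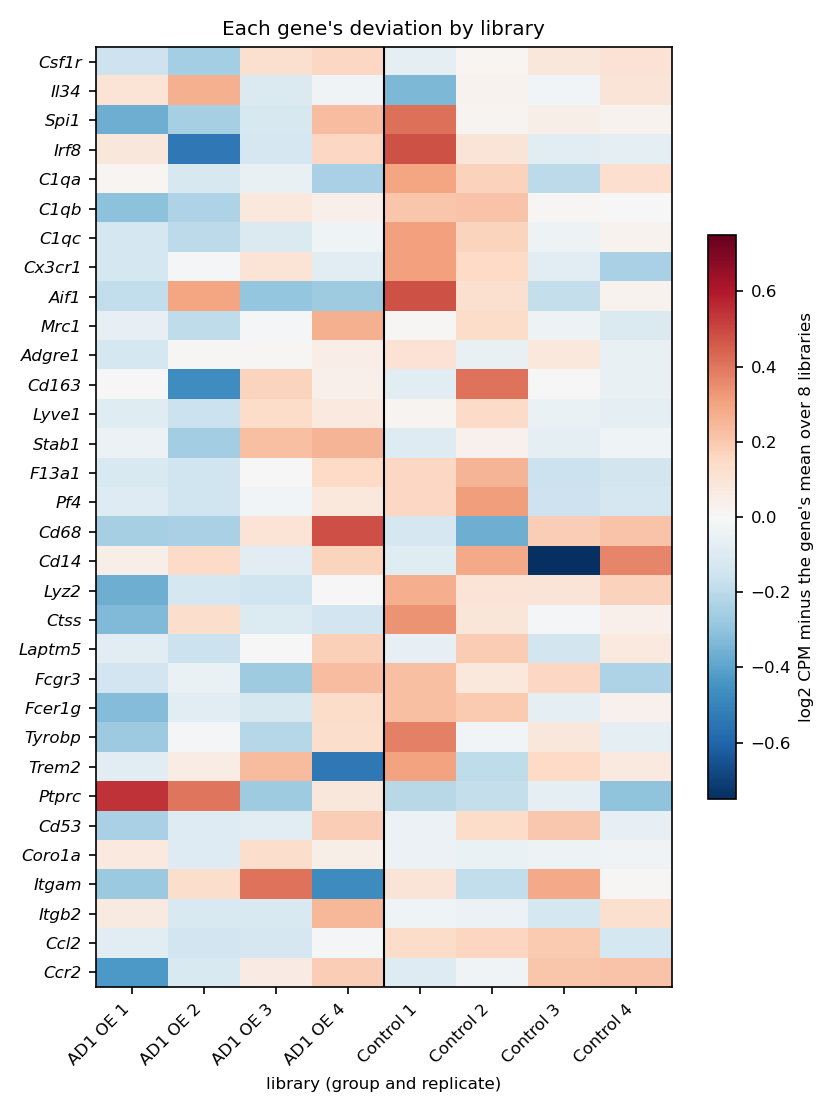
Deviation of each of the 32 tested genes from its mean over the 8 libraries, in log2 CPM, with genes in rows by role and libraries in columns, red above and blue below the mean. Control replicate 1 is red for the C1q chains, Spi1, Irf8, Aif1, Lyz2, Ctss and Tyrobp, AD1 OE replicates 1 and 2 are blue for most genes, and Ptprc runs against them.

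The sexes were spread unevenly over the genotypes. Between genotypes within a sex, 10 of the 32 genes were below 0 in both sexes, 3 were above 0 in both, and 19 had opposite signs. The same shares over all tested genes were not computed, so these counts are not read as a difference between the sexes. No test was made within a sex, since each holds a single library of 1 genotype. With a sex score as a covariate in the edgeR fit, the median log2 fold change of the 32 genes was -0.06, 22 values were below 0 and 10 genes turned in sign. Of the 4 genes with an unadjusted p under 0.05, only Lyz2 kept it there, with a log2 fold change of -0.32 (edgeR adjusted p = 0.0985). The values were -0.10 for C1qb (edgeR adjusted p = 0.716), -0.20 for C1qc (edgeR adjusted p = 0.351) and 0.28 for Ptprc (edgeR adjusted p = 0.56).

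The genes around this list, which were written down by pathway and cell type with earlier results known, were read from the same fit, in which 2.57% of all tested genes were called, 6.55% had an adjusted p under 0.05 and 49.5% were below 0. Of 13 ligands and partners of the macrophage receptors, led by Apoe and Cd200, 0 were called, and at an edgeR adjusted p under 0.05 there was 1, Sirpa. Of 11 tested genes in the list for signalling below Csf1r, Trem2 and the Fc receptors, led by Maf and Tyk2, 0 were called. Maf encodes a transcription factor, and the paper used its protein as a marker of some mechanoreceptor neurons. At an edgeR adjusted p under 0.05 there was 1 gene of this list, Ptpn6. It encodes the phosphatase SHP-1, which holds back signals of the receptors named. Ptpn6 was at 4.43, 3.43, 4.32 and 4.25 CPM in AD1 OE and at 5.89, 6.67, 4.87 and 5.68 CPM in Control. Its AD1 OE libraries were all below its Control libraries, as for 7.26% of all tested genes. The log2 fold change was -0.49 (edgeR adjusted p = 0.031). Sirpa, the receptor for the signal of Cd47, was at 57.1 ± 1.5 and 51.0 ± 1.72 CPM (log2 fold change 0.16, edgeR adjusted p = 0.0371). Sirpa is also expressed by neurons, and both genes were picked for mention after their values had been seen. Of 18 other macrophage genes 0 were called, 15 were below 0, and the median log2 fold change was -0.11. Of 9 microglia markers 0 were called, with a median of -0.02, and the list was led by Olfml3 and Tmem119. Of 13 complement genes beyond C1q, led by Clu and Serping1, 0 were called, and the median was 0.02. Of 9 genes of antigen presentation 0 were called, 7 were below 0, and 1 had an edgeR adjusted p under 0.05, H2-D1, a class I gene at 36.9 ± 2.34 and 43.2 ± 2.89 CPM (log2 fold change -0.23, edgeR adjusted p = 0.0489). Of 10 other chemokine genes and receptors and 12 genes of the inflammatory and interferon response, 0 were called. Below 0 were 9 of the 10, with a median of -0.10, and 8 of the 12, with a median of -0.03. The marker lists of neutrophils and monocytes, lymphocytes, red blood cells and platelets, endothelium, Schwann cells and satellite glia, fibroblasts, sensory neurons and spinal cord held 0 called genes as well. At an edgeR adjusted p under 0.05 they held 1, the fibroblast gene Pdgfra (log2 fold change 0.23, edgeR adjusted p = 0.0232), and, like H2-D1, it was picked after its values had been seen. In the spinal cord list, all 5 markers were below 0 with a median of -1.22. Of the 7 tested genes of red blood cells and platelets, 6 were above 0, with a median of 0.42. The 9 genes of that list summed to 808 CPM in AD1 OE replicate 2. The sums were 239 to 408 CPM in the other AD1 OE libraries and 227 to 394 CPM in Control.

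**Figure D5:**
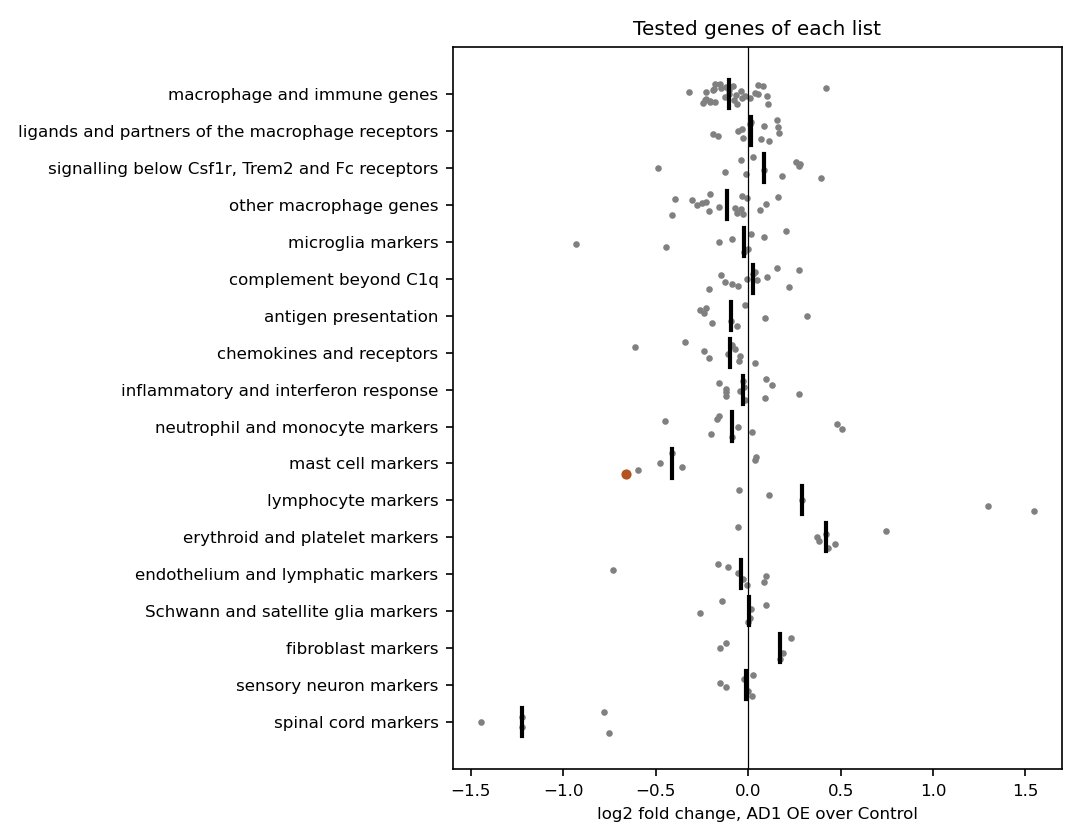
Log2 fold change of AD1 OE over Control for the tested genes of the list and of 17 companion lists (the sex genes, Dach1 and Avil are not shown), with 1 point per gene, a black bar at the median of each list, and a large orange point for a gene that was called. The macrophage and immune genes lie mostly within 0.25 of 0, and the single called gene is Cpa3 among the mast cell markers.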

How the data were processed

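RNA was extracted from E18.5 DRG, and libraries were made with a stranded mRNA kit and sequenced on a NovaSeq instrument. Per the labels, the authors used bcl2fastq 2.20.0.422, STAR 2.7.8a, featureCounts 2.0.1 and the GRCm39 genome, and deposited raw counts per Ensembl gene, 1 file per library, neither normalized nor filtered. Whether counting used the strand is not given in the sources used here. Each file listed 55414 genes and held 0 lines that name no gene. Groups came from the genotypes in the labels.

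Symbols (52081 IDs) and exon lengths came from GENCODE M21 on GRCm38, and promoter sequences from RefSeq, GRCm38.p6. No coordinates were converted between builds. Counts were tested in R 4.3.3 with edgeR 4.0.16 (filterByExpr, TMM, quasi-likelihood F test, genotype as the only term, Benjamini-Hochberg over 17721 genes), and calls required an adjusted p below 0.005 with a log2 fold change beyond 0.25 in size, the limits of the study, which used DESeq2. DESeq2 1.42.0 was an alternative, with other scalings, filters and thresholds, the replicate number as a block, a sex score as a covariate, and each library left out. Leaving out AD1 OE replicates 1 and 2 together was added after the data had been seen. CPM are scaled by TMM and given as mean ± SD. Intervals are 95% intervals from the edgeR standard errors. Library totals were 22339059 to 44025625. Reads carried no molecular identifiers, so counting floors (3 counts) cover counting error only. Replicate pairs all exceeded counting noise (chi-square per degree of freedom 4.02 to 11.1). The fits were tested on simulated counts.

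The 33 genes and all lists were chosen with earlier results of these data known. All 33 are named. Of each companion list, called genes and the 2 most abundant tested genes may be named, with Csf1, Cx3cl1, Dach1 and Avil. For genes outside this rule the text says that their values had been seen.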

Additional observations from a re-analysis of the deposited data

Results flagged for a closer look

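In 3 of the 66 groups tested (33 genes in 2 genotypes), the highest library stood further from the other 3 than Dixon's 95% critical value for 4 samples allows. Chance gives about 1 in 20 such groups, so that 3 of 66 is near what chance gives. Spi1 was at 3.10 CPM in Control replicate 1 against 2.37 to 2.40 CPM in the other Control libraries. Aif1 was at 2.18 CPM in AD1 OE replicate 2 against 1.45 to 1.56 CPM in the others. Cd163 was at 7.85 CPM in Control replicate 2 against 5.58 to 5.90 CPM in the others.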

How the results depend on the processing

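No gene of the list was called in any of the 16 alternative fits at the study's thresholds. With an adjusted p under 0.05 and no limit on the fold, the fit over all libraries had 1, Lyz2, and among the alternative fits Lyz2 was under 0.05 in 6, Ptprc in 2, Stab1 in 1 and Coro1a in 1. Of the 32 tested genes, 18 kept the sign of their log2 fold change in all 16 fits. The median over the list was -0.020 without AD1 OE replicates 1 and 2 and -0.15 to -0.05 when single libraries were left out, and -0.06 with the sex score, which turned 10 signs, and the cause was not tested. Over all genes, 455 were called. There were 747 without an expression filter, which tested more genes, 1161 at an adjusted p under 0.05 alone, 129 at an adjusted p under 0.05 with an absolute log2 fold change over 1, 164 without AD1 OE replicates 1 and 2, and 289 to 420 with 1 library left out, the lowest without AD1 OE replicate 1. DESeq2 called 662 and the fit with the sex score 327. With the replicate number as a block, edgeR called 348 genes and 0 of the list. Deviations of same-numbered libraries correlated at -0.01, -0.05, -0.04 and 0.31, so the numbers were not read as pairs. Depth limits Ccl3, Cd14 and Itgam most. The order of the genes changes between CPM and CPM per kilobase (Ptprc is the 22nd by CPM and the 31st per kilobase), so neither gives numbers of molecules without the exon models.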

Other observations

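Of 7 mast cell markers, from a list apart from the macrophage genes, 1 was called, against 2.57% of all tested genes. It was the only called gene of all companion lists of immune and tissue markers. These lists together hold many more tested genes, so that 1 call over all of them is not above that share. Cpa3, which encodes carboxypeptidase A3 of mast cell granules, was at 3.80, 4.72, 3.98 and 3.38 CPM in AD1 OE and at 5.67, 7.13, 5.82 and 6.33 CPM in Control. All AD1 OE libraries were below all Control libraries, as for 7.26% of all tested genes. Cpa3 fell by 0.66 on the log2 scale (adjusted p = 0.0048, edgeR quasi-likelihood test). It was called in 5 of the 16 alternative fits, and its log2 fold change ranged from -0.76 to -0.59 over them. The chymase gene Cma1 was at 2.94 ± 0.506 and 4.05 ± 0.465 CPM (log2 fold change -0.47, edgeR adjusted p = 0.0716) and the tryptase gene Tpsb2 at 3.04 ± 0.428 and 3.92 ± 0.520 CPM (log2 fold change -0.36, edgeR adjusted p = 0.182), both named after their values had been seen. Of the 7 mast cell markers, 5 had an unadjusted p under 0.05, all on the lower side, against 10.3% of all tested genes on that side. These genes are not independent of each other. The other 2 were above 0, among them Kit, which sensory neurons and other cells also express, at 177 ± 6.90 and 172 ± 9.10 CPM. Of 8 further mast cell genes, looked up after these values had been seen, 3 could be tested and 0 were called. Their log2 fold changes were 0.18 for Slc18a2, -0.05 for Gata2 and -0.14 for Hs3st1, so that these 3 did not share the values of Cpa3. Which cells of the ganglia express these 3 was not measured. The 5 untested genes had at most 11 counts in any library. Their mean CPM was lower in AD1 OE for Mrgprb1, Mcpt2, Cyp11a1 and Fcer1a and higher for Mcpt1.

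More genes of developing T cells were looked up after the T cell transcripts had been seen in AD1 OE replicates 1 and 2. Cd8b1 had 101 and 23 counts there and at most 1 count elsewhere, Themis 51 and 13 against at most 2, Rag2 25 and 7 against at most 2, and Dntt 18 and 7 against at most 2. Tcf7 was at 14.8 and 10.3 CPM against 4.18 to 5.55 CPM. Ptcra, the pre-T cell receptor chain, had at most 6 counts in any library. The 11 neutrophil and monocyte markers summed to 14.9 and 23.4 CPM in AD1 OE replicates 1 and 2. They summed to 26.2 CPM in Control replicate 4, where S100a9 was highest at 8.98 CPM, and to 13.7 to 18.1 CPM in the other libraries. Hbb-bs, a globin of red blood cells, was highest in AD1 OE replicate 2 at 450 CPM against 127 to 225 CPM elsewhere.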
